A study of Mus musculus with 32 samples.

Results

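The genes of glucose and lactate transport, glycolysis, pyruvate dehydrogenase kinase and glycogen metabolism were followed across the atria of 4 mouse genotypes. The list holds 37 genes chosen by function. Of these, 33 had a probe set naming that gene alone, and all 33 passed the filter on low signals, among 15219 genes tested. For each gene the brightest such probe set was used. Eno1, Gpi1 and Pfkfb1 had none under those names, and Gapdh lay only on probe sets that name several genes, so these 4 were not analysed here.

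Each atrium of 16 mice gave total RNA for an expression array of its own (Affymetrix Mouse Gene 1.0 ST), 32 arrays in all. Each genotype had 4 animals, all of mixed C57BL/6 and FVB/N strain: non-transgenic controls (Ntg), mice with the Mst1 transgene, mice with the dnPI3K transgene, and dnPI3K-Mst1 mice with both. dnPI3K is a dominant negative phosphoinositide 3-kinase, the enzyme that carries the insulin signal to glucose uptake and glycogen synthesis. The Mst1 protein, a Hippo pathway kinase, is the product of Stk4. The labels used here give no age, no sex and no promoter for either transgene. Values are log2 signals, averaged over an animal's atria, and differences between genotypes are log2 differences tested with limma over all 15219 genes. A gene was called at a Benjamini-Hochberg adjusted p under 0.05, and a p-value reflects only how these animals vary. In these whole-tissue samples, fewer cells of a type and less RNA per cell cannot be told apart.

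Glucose enters the cardiac myocyte mainly through the insulin-regulated transporter GLUT4, while GLUT1 serves basal uptake in most cells and in the fetal heart. Glycolysis then runs through enzymes that mostly exist as several isoforms, some made in striated muscle and others in most tissues. Its product, pyruvate, is either reduced to lactate or oxidised by the pyruvate dehydrogenase (PDH) complex, which PDH kinases switch off and PDH phosphatases switch on. Glycogen is the myocyte's glucose store, built by glycogen synthase and broken down by glycogen phosphorylase, which phosphorylase kinase activates.

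The promoter stretches of 4 genes are shown because these stand for the patterns described below: a widely expressed isoform that rose with Mst1 (Slc2a1, Pgam1), the muscle isoform that fell beside it (Pgam2), and a gene that fell with either transgene (Gys1). Each is the 250 bases before the start of the gene in RefSeq on GRCm38.p6, written 5' to 3' on the gene's strand. Slc2a1 lies at chr4:119108495-119108744 (plus strand), Pgam1 at chr19:41911621-41911870 (plus strand), Pgam2 at chr11:5803797-5804046 (minus strand) and Gys1 at chr7:45434589-45434838 (plus strand). Capitals mark ACGTG, the core bound by hypoxia-inducible factors, CAGCTG, an E-box, and TAAAAATA, an A/T-rich motif of the MEF2 type, or their reverse complements.
Slc2a1: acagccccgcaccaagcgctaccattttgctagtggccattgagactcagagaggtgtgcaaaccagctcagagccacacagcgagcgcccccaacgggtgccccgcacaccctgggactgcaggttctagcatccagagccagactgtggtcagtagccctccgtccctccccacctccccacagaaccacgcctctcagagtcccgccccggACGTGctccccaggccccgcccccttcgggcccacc
Pgam1: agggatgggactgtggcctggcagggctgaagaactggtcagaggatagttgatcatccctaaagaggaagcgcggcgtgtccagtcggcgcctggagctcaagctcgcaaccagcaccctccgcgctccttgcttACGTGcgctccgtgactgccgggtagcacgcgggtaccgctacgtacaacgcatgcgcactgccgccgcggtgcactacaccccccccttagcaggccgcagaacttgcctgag
Pgam2: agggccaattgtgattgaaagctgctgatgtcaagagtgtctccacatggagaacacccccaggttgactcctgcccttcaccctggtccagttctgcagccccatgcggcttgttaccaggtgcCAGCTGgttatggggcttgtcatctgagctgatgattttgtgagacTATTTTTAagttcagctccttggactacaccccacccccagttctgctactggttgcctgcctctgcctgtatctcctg
Gys1: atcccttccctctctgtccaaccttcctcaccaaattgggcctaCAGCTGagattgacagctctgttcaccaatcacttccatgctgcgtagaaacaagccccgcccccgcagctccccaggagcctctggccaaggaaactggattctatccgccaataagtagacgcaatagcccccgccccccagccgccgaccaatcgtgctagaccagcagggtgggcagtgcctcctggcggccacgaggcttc

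ACGTG stands 36 bases before the start in Slc2a1 and 114 bases before it in Pgam1, and in neither of the other stretches. Pgam2 carries CAGCTG 125 bases and the A/T-rich motif, on its other strand, 79 bases before the start, and Gys1 carries CAGCTG 206 bases before it. A RefSeq window was found for 31 of the 33 genes, and Slc2a4 and Slc16a7 had none. In windows of this length ACGTG, searched on both strands, was in 16.6% of all 32851 and in 21 of the 46 windows of these genes (45.7%). The corresponding shares were 13% and 17.4% for CAGCTG, 12.6% and 8.7% for CATTCC (the MCAT motif of muscle promoters), and 2.45% and 2.17% for TAAAAATA. No motif searched contains another, and the motifs were chosen with the results known. These shares count windows, and a gene can have several. Counted by gene, with a match in any of its windows enough, ACGTG was in 3 of the 4 genes higher in Mst1 against Ntg. It was in 6 of the 14 lower genes with a window, while CAGCTG was in 0 of those 4 and 6 of those 14. These matches are a description of the sequence.

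Array medians ran from 5.51 to 5.68 log2. There were 4 arrays that correlated on average under 0.97 with the rest, 1 each of Mst1 1466, Ntg 1662, dnPI3K 1507 and dnPI3K 3241. Stk4 averaged 7.54 ± 0.11 (SD, n = 4) in Ntg, 8.25 ± 0.09 in Mst1, 7.61 ± 0.13 in dnPI3K and 8.33 ± 0.11 with both transgenes, which follows the labels. Pik3ca, which encodes the PI3K catalytic subunit p110 alpha, averaged 9.11 ± 0.25, 9.73 ± 0.30, 10.04 ± 0.09 and 10.27 ± 0.13 in the same order, and the labels do not say which subunit the dnPI3K transgene carries. The atrial gene Nppa was between 13.33 and 13.48 log2 in the 4 genotypes. Bmp10, known as a right atrial gene of the adult mouse, was higher in the array labelled left in 13 animals and in that labelled right in 3 (Ntg 1301, Ntg 1662 and Mst1 1839), so a mean over both arrays, which does not depend on the side label, was used.

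In Mst1 against Ntg 4 of the 33 genes were higher and 15 lower, against 12.6% and 14.2% of all genes tested. The median difference of the 33 genes was -0.21 log2, and that of all genes -0.00. In dnPI3K against Ntg 1 gene was higher and 7 were lower, against 1.29% and 2.75% of all genes, with a median of -0.21. In dnPI3K-Mst1 against Ntg 6 were higher and 16 lower, against 16.4% and 14.2%, with a median of -0.30 beside 0.02 for all genes. These comparisons share the Ntg animals.

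**Figure D1:**
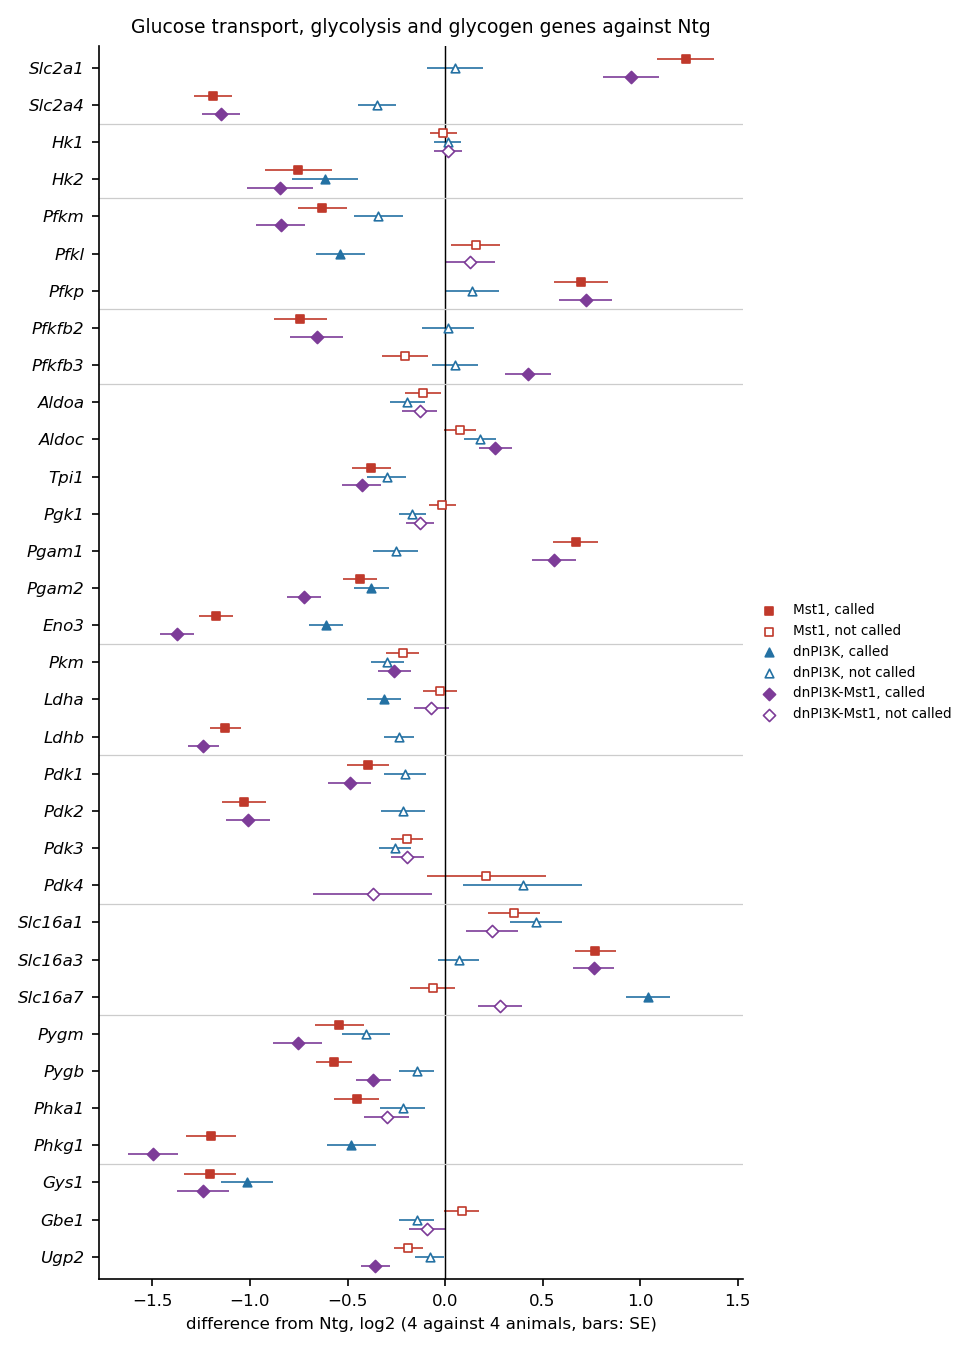
Difference from Ntg (log2, horizontal axis) for each of the 33 genes (vertical axis, grouped by role) in Mst1, dnPI3K and dnPI3K-Mst1, 4 against 4 animals, with SE bars; filled symbols passed the test and open ones did not. Slc2a1, Pfkp, Pgam1 and Slc16a3 lie to the right in both genotypes with Mst1, while Slc2a4, Eno3, Ldhb, Pdk2, Phkg1 and Gys1 lie to the left by 1.01 to 1.50 log2.

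The glucose transporters moved in opposite directions. Slc2a4, which encodes GLUT4, read 9.09, 9.03, 9.03 and 9.12 log2 in the Ntg animals, 7.62, 7.83, 8.0 and 8.07 in Mst1, 8.65, 8.85, 8.75 and 8.63 in dnPI3K, and 7.95, 7.70, 7.94 and 8.09 in dnPI3K-Mst1. Every animal with Mst1 was below every animal without it. The fall was 2.28-fold in Mst1 against Ntg (-1.19 ± 0.10, SE, adjusted p = 3.23e-08) and 2.22-fold in dnPI3K-Mst1 against Ntg (-1.15 ± 0.10, adjusted p = 3.79e-08). In dnPI3K the difference was -0.35 ± 0.10 and missed the threshold (adjusted p = 0.0514), although all 4 dnPI3K animals were below all 4 Ntg animals.

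Slc2a1, which encodes GLUT1, read 7.28, 7.20, 7.03 and 6.95 log2 in Ntg, 7.79, 8.48, 8.43 and 8.69 in Mst1, 7.07, 7.23, 7.34 and 7.01 in dnPI3K, and 7.89, 7.99, 8.23 and 8.16 in dnPI3K-Mst1. The groups with and without Mst1 did not overlap, and the lowest Mst1 value belonged to animal 1466, whose left array stands apart. The rise was 2.35-fold in Mst1 against Ntg (1.23 ± 0.14, SE, adjusted p = 2.3e-06) and 1.94-fold in dnPI3K-Mst1 (0.95 ± 0.14, adjusted p = 3.73e-05). The difference between dnPI3K and Ntg was 0.05 ± 0.14 (adjusted p = 0.909). Slc2a12, a further transporter (GLUT12), fell by 1.23 log2 in Mst1 and by 1.22 in dnPI3K-Mst1 (adjusted p = 3.55e-07 and 2.96e-07). Tbc1d4, whose product AS160 holds GLUT4 inside the cell until insulin acts, fell by 0.79 in both.

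Hexokinase traps glucose as glucose 6-phosphate. Hk2, the insulin-responsive form of muscle and heart, read 8.98, 9.13, 8.95 and 9.16 log2 in Ntg, 7.58, 8.41, 8.60 and 8.62 in Mst1, 8.53, 8.40, 8.66 and 8.16 in dnPI3K, and 8.07, 8.06, 8.34 and 8.36 in dnPI3K-Mst1. All 12 transgenic animals were below all 4 controls. The differences from Ntg were -0.75 ± 0.17 in Mst1 (adjusted p = 0.00225), -0.62 ± 0.17 in dnPI3K (adjusted p = 0.0466) and -0.85 ± 0.17 in dnPI3K-Mst1 (adjusted p = 0.000699). The dnPI3K call was lost when any 1 of 12 animals was left out, namely each Ntg and dnPI3K animal, Mst1 1838 and dnPI3K-Mst1 1509, 1649 and 1650 (adjusted p up to 0.147).

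Hk1, the form of most tissues, gave different answers on its probe sets. The brightest one, which lists no RefSeq mRNA, stayed between 11.75 and 11.77 log2 in the 4 genotypes. The probe set that lists Hk1 mRNAs in RefSeq averaged 8.78 ± 0.02 (SD, n = 4) in Ntg, 9.04 ± 0.23 in Mst1, 8.72 ± 0.11 in dnPI3K and 9.14 ± 0.14 with both transgenes. On that probe set, an alternative chosen after seeing the data, Hk1 was higher in dnPI3K-Mst1 against Ntg by 0.36 ± 0.10 (adjusted p = 0.0103), and in Mst1 against Ntg the difference was 0.26 ± 0.10 (adjusted p = 0.0586).

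Phosphofructokinase commits sugar to glycolysis, and its muscle, platelet and liver subunits parted. Pfkm, the muscle subunit, read 10.88, 10.78, 10.80 and 11.07 log2 in Ntg, 9.76, 10.27, 10.44 and 10.55 in Mst1, 10.52, 10.53, 10.58 and 10.54 in dnPI3K, and 10.19, 9.83, 10.08 and 10.07 in dnPI3K-Mst1. It was lower in every transgenic animal than in every control. The falls were 1.55-fold in Mst1 (-0.63 ± 0.13, adjusted p = 0.000751) and 1.79-fold in dnPI3K-Mst1 (-0.84 ± 0.13, adjusted p = 3.12e-05), and the difference in dnPI3K was -0.34 ± 0.13 (adjusted p = 0.147). Pfkp, the platelet subunit, read 7.96, 7.83, 7.64 and 7.86 in Ntg and 8.53, 8.50, 8.58 and 8.56 in dnPI3K-Mst1, a rise of 0.72 ± 0.14 (adjusted p = 0.000438). In Mst1 it read 7.93, 8.67, 8.58 and 8.89, higher by 0.70 ± 0.14 (adjusted p = 0.000677), with animal 1466 inside the control range.

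Pfkl, the liver subunit, was the phosphofructokinase gene called in dnPI3K. Pfkl read 8.08, 7.82, 7.92 and 7.79 log2 in Ntg, 7.58, 8.21, 8.04 and 8.39 in Mst1, 7.51, 7.31, 7.42 and 7.22 in dnPI3K, and 8.06, 7.99, 8.03 and 8.05 in dnPI3K-Mst1. It fell 1.45-fold in dnPI3K against Ntg (-0.54 ± 0.12, adjusted p = 0.0175), a call lost without Ntg 1301 or dnPI3K 3241 (adjusted p up to 0.0608). It was higher in dnPI3K-Mst1 than in dnPI3K by 0.67 ± 0.12 (adjusted p = 0.00058), and the dnPI3K-Mst1 animals lay inside the control range.

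Fructose 2,6-bisphosphate, made by the PFKFB enzymes, is the strongest activator of phosphofructokinase. Pfkfb2, the heart isoform, averaged 8.48 ± 0.26 log2 (SD, n = 4) in Ntg and 8.49 ± 0.28 in dnPI3K, and fell in Mst1 (7.73 ± 0.12, adjusted p = 0.000313) and dnPI3K-Mst1 (7.82 ± 0.17, adjusted p = 0.000819). Pfkfb3, the inducible isoform, read 7.25, 6.83, 6.98 and 7.39 in Ntg, 6.86, 6.95, 6.89 and 6.92 in Mst1, 7.07, 6.96, 7.16 and 7.47 in dnPI3K, and 7.59, 7.44, 7.41 and 7.71 in dnPI3K-Mst1. All 4 dnPI3K-Mst1 animals were above every Ntg and every Mst1 animal, and they overlapped with dnPI3K. The rise of Pfkfb3 in dnPI3K-Mst1 against Ntg was 1.34-fold (0.42 ± 0.12, SE, adjusted p = 0.00897).

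Along the lower glycolytic steps Eno3 and Pgam2 fell in all 3 transgenic genotypes. Eno3, muscle enolase, read 10.91, 10.91, 11.03 and 11.09 log2 in Ntg, 9.64, 9.82, 9.91 and 9.88 in Mst1, 10.33, 10.20, 10.48 and 10.49 in dnPI3K, and 9.58, 9.51, 9.76 and 9.60 in dnPI3K-Mst1. Its animals fell into 3 levels that did not overlap: Ntg on top, dnPI3K next, and the genotypes with Mst1 at the bottom. The falls from Ntg were 2.26-fold in Mst1 (-1.17 ± 0.09, adjusted p = 5.6e-09), 1.53-fold in dnPI3K (-0.61 ± 0.09, adjusted p = 0.000237) and 2.59-fold in dnPI3K-Mst1 (-1.37 ± 0.09, adjusted p = 6.13e-10). Eno2, the enolase of neurons, rose by 0.87 in Mst1 and 0.82 in dnPI3K-Mst1 from 5.58 ± 0.07 in Ntg (adjusted p = 4.07e-06 and 6.22e-06).

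Phosphoglycerate mutase showed the same opposition as the transporters. Pgam2, the muscle form, read 11.01, 11.01, 11.18 and 11.04 log2 in Ntg, 10.56, 10.58, 10.69 and 10.66 in Mst1, 10.73, 10.83, 10.65 and 10.52 in dnPI3K, and 10.47, 10.08, 10.36 and 10.45 in dnPI3K-Mst1. It was below the controls in all 12 transgenic animals. The differences from Ntg were -0.44 ± 0.09 in Mst1 (adjusted p = 0.000841), -0.38 ± 0.09 in dnPI3K (adjusted p = 0.0181) and -0.72 ± 0.09 in dnPI3K-Mst1 (adjusted p = 2.91e-06). The dnPI3K call was lost without Ntg 1662, dnPI3K 1660 or dnPI3K 3241 (adjusted p up to 0.0696). Pgam1, the form of most tissues, read 8.24, 8.10, 8.02 and 8.0 in Ntg, 8.44, 8.87, 8.84 and 8.89 in Mst1, 8.07, 7.91, 7.81 and 7.54 in dnPI3K, and 8.48, 8.64, 8.67 and 8.80 in dnPI3K-Mst1. The rise was 1.59-fold in Mst1 (0.67 ± 0.11, adjusted p = 0.000172) and 1.47-fold in dnPI3K-Mst1 (0.56 ± 0.11, adjusted p = 0.000874). Of the 3 probe sets of Pgam1 and the 3 of Pgk1, a pair in each held identical values, so a near-identical copy elsewhere in the genome cannot be told apart from either gene.

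Of the remaining enzymes from aldolase onward, Tpi1, triose phosphate isomerase, fell by 0.38 ± 0.10 in Mst1 and by 0.43 ± 0.10 in dnPI3K-Mst1 (adjusted p = 0.00729 and 0.00263). Aldoc, the brain aldolase, averaged 5.03 ± 0.07 log2 (SD, n = 4) in Ntg, above the filter and below every array median. It was higher by 0.26 ± 0.08 (SE) in dnPI3K-Mst1 (adjusted p = 0.0237), a call lost without Ntg 1662, Ntg 1834 or dnPI3K-Mst1 1647 (adjusted p up to 0.0859). Aldoa, the muscle aldolase, and Pgk1, phosphoglycerate kinase, were called in no comparison. Aldoa averaged between 11.63 and 11.83 and Pgk1 between 10.76 and 10.93 over the 4 genotypes.

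At the branch between lactate and oxidation, Ldhb, the heart subunit of lactate dehydrogenase, fell most clearly. It read 9.30, 9.45, 9.54 and 9.40 log2 in Ntg, 8.24, 8.29, 8.34 and 8.31 in Mst1, 9.13, 9.16, 9.26 and 9.19 in dnPI3K, and 8.26, 7.97, 8.22 and 8.28 in dnPI3K-Mst1. Every animal with Mst1 lay below every animal without it. The falls from Ntg were 2.18-fold in Mst1 (-1.13 ± 0.08, adjusted p = 3.32e-09) and 2.36-fold in dnPI3K-Mst1 (-1.24 ± 0.08, adjusted p = 7.94e-10). In dnPI3K the difference was -0.24 ± 0.08 (adjusted p = 0.106).

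Ldha, the muscle subunit, averaged 10.58 ± 0.04 log2 (SD, n = 4) in Ntg, 10.56 ± 0.23 in Mst1, 10.27 ± 0.07 in dnPI3K and 10.51 ± 0.02 with both transgenes. It was called lower in dnPI3K (-0.31 ± 0.09, SE, adjusted p = 0.0499), a call lost when any 1 of 13 animals was left out, the 12 named for Hk2 and Mst1 1839 (adjusted p up to 0.121). Pkm, pyruvate kinase, was called lower in dnPI3K-Mst1 (-0.26 ± 0.08, adjusted p = 0.0243) and not in Mst1 (-0.22 ± 0.08, adjusted p = 0.0652) or dnPI3K (-0.30 ± 0.08, adjusted p = 0.0539). The Pkm call was lost without Ntg 1662, Ntg 1834, dnPI3K-Mst1 1647 or dnPI3K-Mst1 1649, and with the mean of its probe sets (adjusted p = 0.0969).

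**Figure D2:**
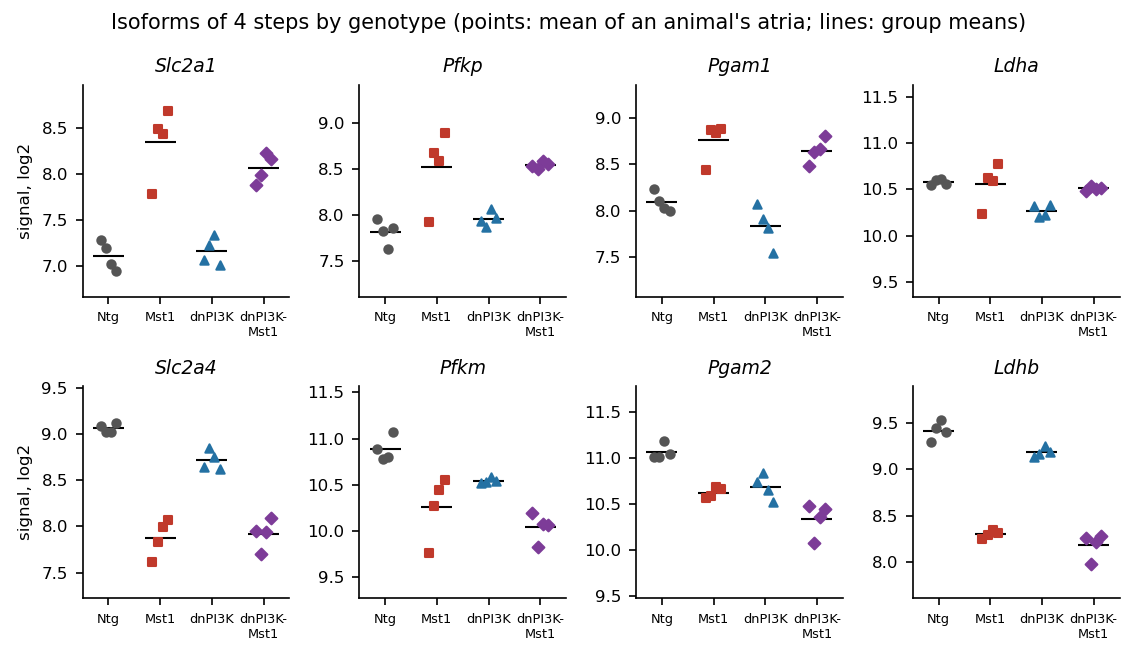
Log2 signal (vertical axes of equal span) of the 16 animals by genotype for isoforms of the glucose transporter, phosphofructokinase, phosphoglycerate mutase and lactate dehydrogenase; points are the mean of an animal's atria and lines the group means. Slc2a4, Pfkm, Pgam2 and Ldhb in the lower row are lower in the genotypes with Mst1, while Slc2a1, Pfkp and Pgam1 above them are higher and Ldha stays between 10.27 and 10.58 on average.

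Within an animal, the balance of isoforms was followed as the change of their log2 ratio from the Ntg mean, which sets no probe's level against another's and was not tested. The ratio of Slc2a1 to Slc2a4 was 5.36-fold higher in Mst1 (2.42 ± 0.14, SE, n = 4) and 4.29-fold higher in dnPI3K-Mst1 (2.10 ± 0.12), and 1.32-fold higher in dnPI3K (0.40 ± 0.10). Pfkp to Pfkm shifted by 1.33 ± 0.10, 0.48 ± 0.08 and 1.56 ± 0.10 in Mst1, dnPI3K and dnPI3K-Mst1. The corresponding values were 1.11 ± 0.12, 0.12 ± 0.11 and 1.28 ± 0.14 for Pgam1 to Pgam2. They were 1.10 ± 0.10, -0.08 ± 0.06 and 1.17 ± 0.09 for Ldha to Ldhb. In Mst1 and dnPI3K-Mst1 these 4 ratios lay outside the Ntg range in every animal, Mst1 1466 included, where the shift of Pfkp to Pfkm was at least 1.20.

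The remaining ratios differed in size and in overlap with the Ntg range. Pygb to Pygm, the brain and muscle forms of glycogen phosphorylase, changed by -0.03 ± 0.08 in Mst1, where both genes fell, and by 0.39 ± 0.09 in dnPI3K-Mst1. Pfkfb3 to Pfkfb2 changed by 0.53 ± 0.18 in Mst1 and 1.08 ± 0.21 in dnPI3K-Mst1, outside the Ntg range in every animal of both, and overlapped that range in dnPI3K. Slc16a7 to Slc16a1 overlapped the Ntg range in all 3 genotypes. Hk1 to Hk2 rests on the Hk1 probe set without a RefSeq mRNA, so its shifts of 0.74, 0.63 and 0.86 are those of Hk2.

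**Figure D3:**
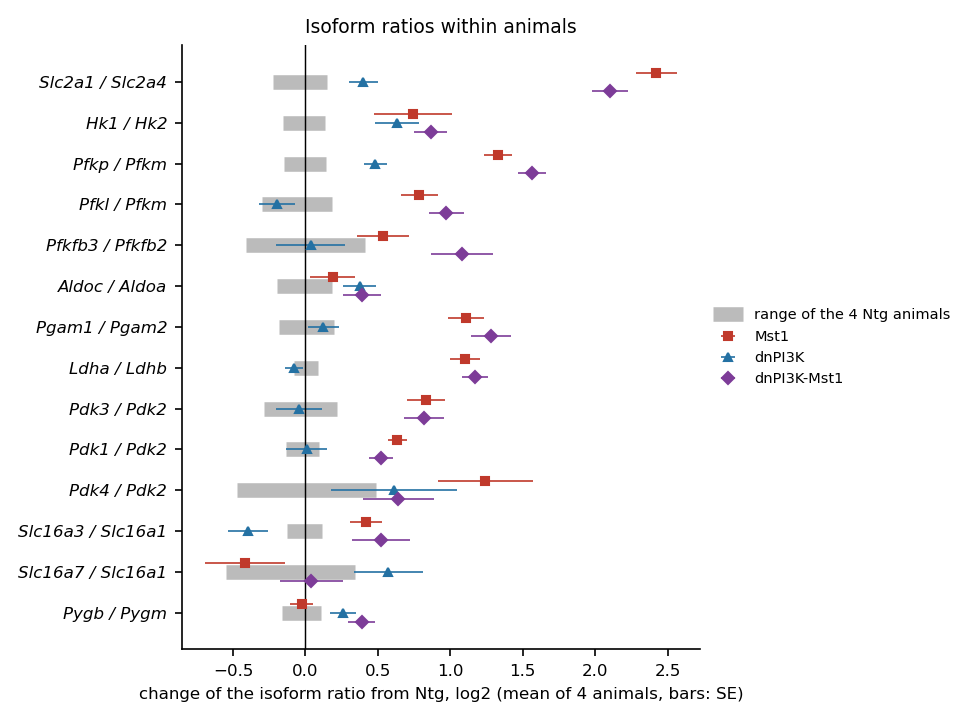
Change of the isoform ratio from Ntg (log2, horizontal axis; mean of 4 animals with SE) for 14 pairs of isoforms (vertical axis), with the range of the 4 Ntg animals as a grey bar. The largest shift is that of Slc2a1 to Slc2a4, 2.42 in Mst1 and 2.10 in dnPI3K-Mst1, and in dnPI3K Pfkp to Pfkm is at 0.48 while Ldha to Ldhb, at -0.08, lies in the grey bar.

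PDH kinases phosphorylate and inactivate the PDH complex. Pdk2, the widespread kinase, read 10.25, 10.31, 10.44 and 10.40 log2 in Ntg, 9.15, 9.36, 9.33 and 9.44 in Mst1, 10.10, 10.35, 10.17 and 9.91 in dnPI3K, and 9.45, 8.95, 9.48 and 9.48 in dnPI3K-Mst1. The genotypes with Mst1 lay below those without it in every animal. The falls from Ntg were 2.04-fold in Mst1 (-1.03 ± 0.11, adjusted p = 1.08e-06) and 2.01-fold in dnPI3K-Mst1 (-1.01 ± 0.11, adjusted p = 1e-06). Pdk1 fell by 0.39 ± 0.11 and 0.49 ± 0.11 in the same genotypes (adjusted p = 0.00963 and 0.00166). The Pdk1 call in Mst1 was lost without the 4 animals whose arrays stand apart (-0.31, adjusted p = 0.065) and with the arrays labelled right alone (-0.34, adjusted p = 0.0674).

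Pdk4, the kinase induced by fasting and fatty acids, overlapped between all genotypes. It averaged 9.97 ± 0.51 log2 (SD, n = 4) in Ntg, 10.18 ± 0.61 in Mst1, 10.37 ± 0.59 in dnPI3K and 9.60 ± 0.41 with both transgenes, and was called in no comparison. Pdk3 averaged between 7.36 and 7.62 and was not called either.

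Genes of pyruvate entry and the PDH complex were taken from a list of pyruvate carrier, PDH subunits and PDH phosphatases, of which 9 of 10 were tested. All 9 were lower in Mst1 against Ntg and all 9 in dnPI3K-Mst1 against Ntg, where 14.2% of all genes were lower in each. Their medians were -0.78 and -0.82 log2, beside -0.00 and 0.02 for all genes. In dnPI3K against Ntg 0 were called by limma (median -0.24), where 2.75% of all genes were lower. There 5 had an unadjusted p under 0.05, and the share of all genes at that threshold was not counted. Pdhb, the E1 beta subunit, averaged 10.28 ± 0.20 (SD, n = 4) in Ntg, 9.49 ± 0.10 in Mst1, 10.04 ± 0.03 in dnPI3K and 9.32 ± 0.14 with both transgenes. Dld, the E3 subunit, averaged 10.39 ± 0.14, 9.50 ± 0.18, 10.14 ± 0.08 and 9.43 ± 0.16 in that order. Pdp2, a phosphatase that reactivates the complex, fell from 6.11 ± 0.18 to 5.13 ± 0.32 in Mst1 and 5.27 ± 0.23 in dnPI3K-Mst1. The phosphatases Pdp1 and Pdp2 fell in the same genotypes as the kinase Pdk2.

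**Figure D4:**
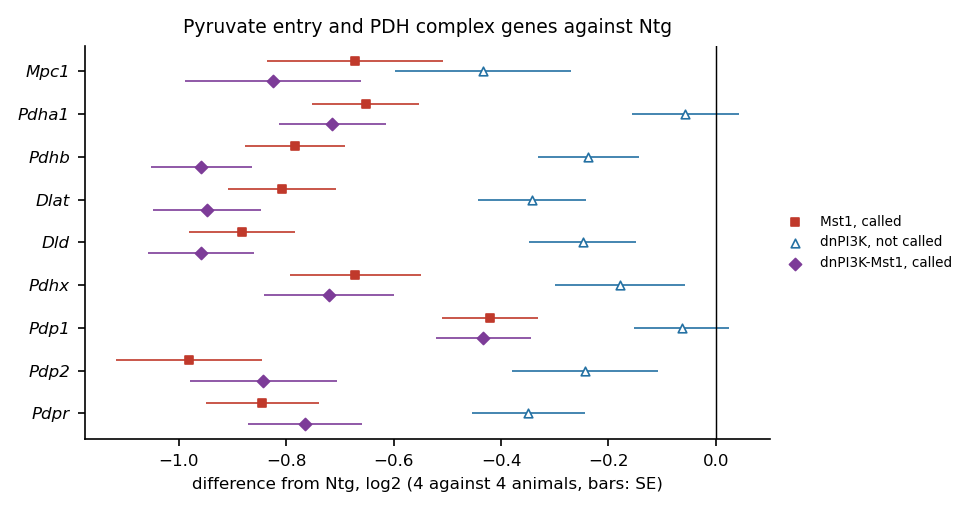
Difference from Ntg (log2, horizontal axis, 4 against 4 animals, SE bars) of the 9 tested genes of pyruvate entry and the PDH complex (vertical axis). All 9 are called in Mst1 and dnPI3K-Mst1, with medians of -0.78 and -0.82, and none in dnPI3K, whose median is -0.24.

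The monocarboxylate transporters carry lactate and pyruvate across the plasma membrane. Slc16a7, which encodes MCT2, read 6.77, 6.23, 6.81 and 6.49 log2 in Ntg, 6.62, 6.53, 6.36 and 6.54 in Mst1, 7.48, 7.55, 7.60 and 7.83 in dnPI3K, and 6.79, 6.70, 6.96 and 6.98 in dnPI3K-Mst1. The dnPI3K animals stood above all 12 others. Slc16a7 was the only gene of the 33 called higher in dnPI3K, 2.06-fold against Ntg (1.04 ± 0.11, adjusted p = 1.46e-05), and it was 1.69-fold lower in dnPI3K-Mst1 than in dnPI3K (-0.76 ± 0.11, adjusted p = 6.51e-05). In dnPI3K-Mst1 against Ntg its difference was 0.28 ± 0.11 (adjusted p = 0.0682).

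Slc16a3, which encodes the lactate exporter MCT4, read 6.23, 6.38, 6.29 and 6.17 log2 in Ntg, 6.82, 7.03, 6.98 and 7.33 in Mst1, 6.18, 6.38, 6.38 and 6.42 in dnPI3K, and 6.84, 7.24, 7.15 and 6.89 in dnPI3K-Mst1. It was higher in every animal with Mst1 than in every animal without, by 0.77 ± 0.11 in Mst1 (adjusted p = 1.44e-05) and 0.76 ± 0.11 in dnPI3K-Mst1 (adjusted p = 1.27e-05) against Ntg. Slc16a1, which encodes MCT1, was called in no comparison of the main model. Its differences from Ntg were 0.35 ± 0.13 in Mst1 (adjusted p = 0.0555), 0.47 ± 0.13 in dnPI3K (adjusted p = 0.0532) and 0.24 ± 0.13 in dnPI3K-Mst1 (adjusted p = 0.186). Some alternatives called it. With array weights limma called it higher in each of these genotypes (adjusted p = 0.00127, 0.0148 and 0.0149).

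These transporters reach the membrane with a partner protein, and the partners moved apart. Emb (embigin), the partner of MCT2, averaged 5.92 ± 0.06 log2 (SD, n = 4) in Ntg, 7.09 ± 0.30 in Mst1, 6.90 ± 0.21 in dnPI3K and 8.17 ± 0.11 with both transgenes. It was called in each of these against Ntg, with differences of 1.17, 0.98 and 2.26, and the non-additivity term was not called. Bsg (basigin), the partner of MCT1 and MCT4, was at 10.03 ± 0.10 in Ntg and fell by 0.27 in Mst1 (adjusted p = 0.00893).

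Of the 3 genes of glycogen synthesis 1 was lower in Mst1 against Ntg, and of the 4 of breakdown all 4 were lower, against 14.2% of all genes. Gys1, muscle glycogen synthase, read 8.44, 8.49, 8.42 and 8.59 log2 in Ntg, 6.88, 7.34, 7.36 and 7.55 in Mst1, 7.48, 7.71, 7.58 and 7.11 in dnPI3K, and 7.16, 7.06, 7.28 and 7.46 in dnPI3K-Mst1. All 12 transgenic animals lay below all 4 controls, and the 3 transgenic genotypes overlapped each other. The falls were 2.30-fold in Mst1 (-1.20 ± 0.13, adjusted p = 1.18e-06), 2.02-fold in dnPI3K (-1.01 ± 0.13, adjusted p = 0.000125) and 2.37-fold in dnPI3K-Mst1 (-1.24 ± 0.13, adjusted p = 5.92e-07). Ugp2, which makes the UDP-glucose that glycogen synthase uses, fell by 0.36 ± 0.07 in dnPI3K-Mst1 (adjusted p = 0.000937). Gbe1, the branching enzyme, was called in no comparison.

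On the side of breakdown, Phkg1, the muscle catalytic subunit of phosphorylase kinase, read 8.33, 8.36, 8.27 and 8.70 log2 in Ntg, 7.07, 7.12, 7.34 and 7.32 in Mst1, 7.69, 7.98, 7.96 and 8.11 in dnPI3K, and 7.16, 6.58, 7.11 and 6.82 in dnPI3K-Mst1. It was below the controls in all 12 transgenic animals. The falls were 2.30-fold in Mst1 (-1.20 ± 0.13, adjusted p = 6.57e-07), 1.40-fold in dnPI3K (-0.48 ± 0.13, adjusted p = 0.0362) and 2.82-fold in dnPI3K-Mst1 (-1.50 ± 0.13, adjusted p = 3.33e-08). The dnPI3K call was lost without any 1 of Ntg 1301, Ntg 1657, Ntg 1834, dnPI3K 1507, dnPI3K 1648 and dnPI3K 1660 (adjusted p up to 0.122).

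Pygm, muscle glycogen phosphorylase, fell by 0.54 ± 0.12 in Mst1 and by 0.76 ± 0.12 in dnPI3K-Mst1 from 11.26 ± 0.11 log2 (SD, n = 4) in Ntg (adjusted p = 0.00258 and 9.77e-05). Pygb, the brain form, fell by 0.57 ± 0.09 and 0.37 ± 0.09 in the same genotypes (adjusted p = 7.4e-05 and 0.00384). Phka1, a regulatory subunit of phosphorylase kinase, fell by 0.45 ± 0.12 in Mst1 (adjusted p = 0.00564), with a difference of -0.30 without Mst1 1466, and was not called in dnPI3K-Mst1 (-0.30 ± 0.12, adjusted p = 0.0556). Of 19 further glycogen genes tested, 2 were higher and 5 lower in Mst1 against Ntg, and 0 higher and 6 lower in dnPI3K-Mst1 against Ntg. The shares over all genes were 12.6% and 14.2% in Mst1 and 16.4% and 14.2% in dnPI3K-Mst1, and the medians of these 19 genes were -0.10 and -0.05 log2. Among them, Pgm1, phosphoglucomutase, fell by 0.70 and 0.78, and Ppp1r3a, the muscle subunit that targets protein phosphatase 1 to glycogen, by 0.63 and 1.03. Pgm1 was also called lower in dnPI3K (-0.38 ± 0.10, adjusted p = 0.0294).

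The 8 genes called in dnPI3K against Ntg were Slc16a7, which was higher, and Gys1, Hk2, Eno3, Pfkl, Phkg1, Pgam2 and Ldha, which were lower. The number called was 14 without Mst1 1466, which enters only the shared estimate of spread. It was 4 without Ntg 1301, dnPI3K 1660 or dnPI3K 3241, and 5 without Ntg 1834 or dnPI3K 1507. Slc16a7, Gys1 and Eno3 kept their calls whichever animal was left out.

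The transgenes were also compared with each other and with their combination. In Mst1 against dnPI3K 6 genes were higher (Slc2a1, Pgam1, Slc16a3, Pfkl, Pfkp and Ldha) and 8 lower (Slc16a7, Ldhb, Slc2a4, Pdk2, Pfkfb2, Phkg1, Eno3 and Pygb), against 11.8% and 10% of all genes. The largest were Slc2a1, by 1.18 ± 0.14, and Slc16a7, by -1.10 ± 0.11 (adjusted p = 5.77e-06 and 8.04e-07). The Ldha call (0.29 ± 0.09, adjusted p = 0.0224) was lost without Mst1 1838, Mst1 1839, Mst1 1840, dnPI3K 1648 or dnPI3K 1660. In dnPI3K-Mst1 against dnPI3K 6 were higher (Slc2a1, Pgam1, Slc16a3, Pfkl, Pfkp and Pfkfb3) and 10 lower (Phkg1, Ldhb, Slc2a4, Pdk2, Eno3, Slc16a7, Pfkfb2, Pfkm, Pgam2 and Ugp2), against 12.8% and 8.8% of all genes. Pfkfb3 in that comparison (0.37 ± 0.12, adjusted p = 0.0277) lost its call without dnPI3K 1507, dnPI3K 1648, dnPI3K 1660, dnPI3K-Mst1 1509 or dnPI3K-Mst1 1650.

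With dnPI3K added to Mst1, 1 of the 33 genes was called in the main model. In dnPI3K-Mst1 against Mst1 Pfkfb3 was higher, 1.55-fold (0.63 ± 0.12, adjusted p = 0.00458), and 0 genes were lower by limma's test, against 2.65% and 0.848% of all genes. At an unadjusted p under 0.05, 4 were higher and 4 lower, and the share of all genes at that threshold was not counted. Without Mst1 1466 there were 3 calls, Pfkfb3 together with Slc2a1 (-0.47, adjusted p = 0.0147) and Pfkm (-0.38, adjusted p = 0.0182).

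The non-additivity term asks whether the combination differs from the sum of the single effects. It was called for 1 gene in the positive direction and 0 in the negative, against 0.368% and 0.145% of all genes. At an unadjusted p under 0.05 by limma the numbers were 11 and 3, and the share of all genes at that threshold was not counted. The called gene was Gys1 (0.97 ± 0.19, SE, adjusted p = 0.0181), with means of 8.48 in Ntg, 7.28 in Mst1, 7.47 in dnPI3K and 7.24 with both transgenes. The same term was -0.69 ± 0.16 for Slc16a7 and missed the threshold (adjusted p = 0.055). The term for Slc16a7 was called without Ntg 1301 or Ntg 1662 (adjusted p = 0.0451 and 0.0254), and that for Slc16a1 without Mst1 1466 (-0.71, adjusted p = 0.0291). For Gys1 the call was lost with the arrays labelled left alone (adjusted p = 0.212), where 0 of all 15219 genes were called. It was also lost with those labelled right alone (adjusted p = 0.0721), and the largest adjusted p with an animal left out was 0.0426.

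**Figure D5:**
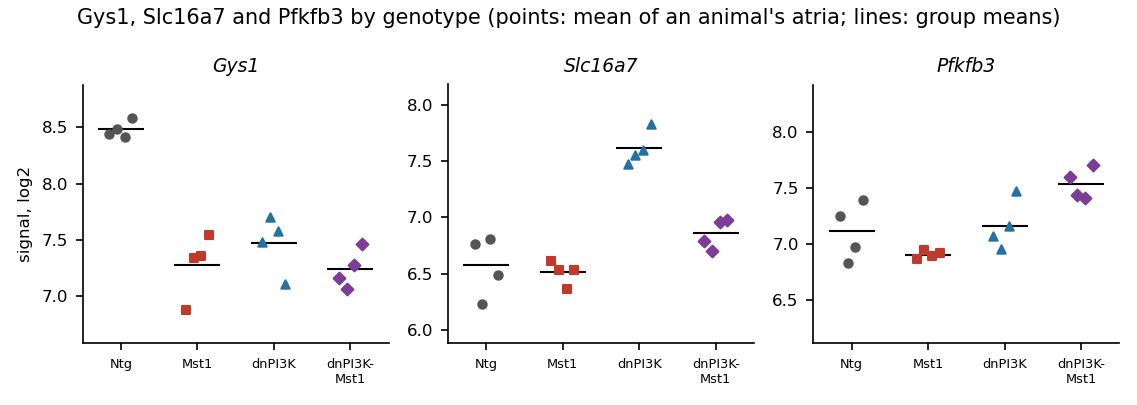
Log2 signal (vertical axes of equal span) of the 16 animals by genotype for Gys1, Slc16a7 and Pfkfb3; points are the mean of an animal's atria and lines the group means. Gys1 is lower in all 12 transgenic animals, Slc16a7 is highest in the 4 dnPI3K animals, and Pfkfb3 in dnPI3K-Mst1 lies above Ntg and Mst1.

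Of 27 regulators of glucose use tested, 4 were higher and 11 lower in Mst1 against Ntg, and 1 higher and 1 lower in dnPI3K against Ntg. Over all genes the shares were 12.6% and 14.2% in Mst1 and 1.29% and 2.75% in dnPI3K, so the number of regulators higher in Mst1 was near the background. In dnPI3K-Mst1 against Ntg 4 were higher and 9 lower, against 16.4% and 14.2% of all genes. The medians of the 27 were -0.16 log2 in Mst1 and -0.15 in dnPI3K-Mst1. The genes named next were chosen by size of change, apart from Hif1a, and most of the lower regulators are not named. Egln3, an oxygen-sensing prolyl hydroxylase that marks hypoxia-inducible factor for destruction, also fell with either transgene, with 8.06 ± 0.16 log2 (SD, n = 4) in Ntg, 6.94 ± 0.26 in Mst1, 6.92 ± 0.09 in dnPI3K and 6.92 ± 0.06 with both transgenes. Its non-additivity term was 1.11 ± 0.15 (adjusted p = 0.00134). Prkag2, a regulatory subunit of the energy sensor AMPK, rose with either transgene, with 9.02 ± 0.04, 9.78 ± 0.10, 9.75 ± 0.19 and 9.87 ± 0.10 and a non-additivity term of -0.63 ± 0.13 (adjusted p = 0.0203). Hif1a, the hypoxia-inducible factor subunit itself, rose by 0.40 in Mst1 and 0.68 in dnPI3K-Mst1 (adjusted p = 0.00074 and 1.71e-06). Prkab2, another AMPK subunit, rose by 0.98 and 0.89 in those genotypes, and Myc, a transcription factor of growth and glycolysis genes, by 0.89 and 0.94.

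Neighbouring pathways were counted in Mst1 against Ntg, where 12.6% of all genes were higher and 14.2% lower. Of 14 further transport and glycolysis genes 2 were higher and 3 lower, with a median difference of -0.12 log2. Of 13 pentose phosphate and hexosamine genes 3 were higher and 0 lower (median 0.12), Gnpnat1 by 0.46 the most. Of 7 genes of gluconeogenesis and glycerol phosphate, 0 were higher and 3 lower (median -0.45), among them Fbp2, muscle fructose bisphosphatase, which fell by 0.54. In dnPI3K against Ntg, where 1.29% of all genes were higher and 2.75% lower, these lists held 1, 0 and 0 calls, the 1 being Emb.

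Averaged over all 16 animals, the atria differed little in most of these genes. That average joins genotypes whose own mean differences varied in size and, for some genes, in sign. With the array of higher Bmp10 set against the other of the same animal, 2 of the 33 genes (6.06%) had a mean difference over 0.25 log2, against 5.34% of all genes tested. Slc16a7 was higher in the array of higher Bmp10 in 15 of 16 animals, by 0.37 on average. Eno3 was higher in it in 4 of 16, with a mean difference of -0.32. Phkg1 was higher in 14 of 16 (0.21) and Pgam2 in 2 of 16 (-0.18). By genotype, with 4 animals each, the mean difference of Pdk3 was 0.54 in Ntg and 0.40 in dnPI3K. It was -0.16 in Mst1 and -0.02 with both transgenes. For Pygb the values in that order were 0.34, 0.26, -0.21 and 0.10. Slc16a7 kept its sign, with 0.46, 0.60, 0.13 and 0.29. A small pooled mean thus does not show that the atria were alike within a genotype. These are descriptions with no test.

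Markers of cell types were read beside these results. Against Ntg, 12.6% of all genes were higher and 14.2% lower in Mst1, and 1.29% and 2.75% in dnPI3K. In dnPI3K-Mst1 the shares were 16.4% and 14.2%. The mean of 8 cardiac myocyte markers was 12.03 log2 in Ntg (animals from 11.94 to 12.12), 11.86 in Mst1 (11.44 to 12.02), 11.97 in dnPI3K and 11.84 with both transgenes. Of the 8, 0 were higher and 1 lower in Mst1 and 2 lower in dnPI3K-Mst1 against Ntg, while 4 and 5 of 7 atrial myocyte markers were lower, and 1 was higher in dnPI3K-Mst1. Fibroblast markers averaged 9.60 in Ntg (9.34 to 9.93), 9.91 in Mst1 (9.84 to 9.97), 9.66 in dnPI3K (9.44 to 9.97) and 10.32 in dnPI3K-Mst1 (10.15 to 10.76), with 2 of 8 higher in Mst1 and 7 of 8 in dnPI3K-Mst1. Smooth muscle and pericyte markers averaged 7.51, 8.11, 7.49 and 8.31, with 4 of 7 higher in each genotype with Mst1 and 2 of 7 lower in Mst1.

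Macrophage markers averaged 7.61, 7.65, 7.66 and 8.05 log2 in Ntg, Mst1, dnPI3K and dnPI3K-Mst1, with 1 of 8 higher in Mst1 and 4 of 8 in dnPI3K-Mst1. Of 8 endothelial markers, 1 was higher and 4 were lower in Mst1 and 3 were higher and 1 lower in dnPI3K-Mst1. Adipocyte markers averaged 5.88 in Ntg (5.46 to 6.73, the highest in Ntg 1301), 5.36, 5.5 and 5.60, with 2 of the 7 measured below the filter. Of the 5 tested, 2 were lower in Mst1 (Plin1 and Fabp4), 0 in dnPI3K and 1 in dnPI3K-Mst1 (Fabp4), and 0 were higher. Skeletal muscle markers averaged 6.06, 5.71, 5.80 and 5.69 with 2 of 9 below the filter. Of the 7 tested, 2 were higher and 2 lower in Mst1, 0 and 2 in dnPI3K, and 3 and 2 in dnPI3K-Mst1. Ckm, the creatine kinase of skeletal and cardiac muscle, fell by 3.57, 0.67 and 4.05 log2 in Mst1, dnPI3K and dnPI3K-Mst1. Atp2a1, the calcium pump of fast muscle, fell by 0.90, 0.53 and 0.94, while Tnnt3, fast troponin T, rose by 1.07 in Mst1 and 1.26 in dnPI3K-Mst1. The part of these moves in the fall of Pfkm, Pgam2, Eno3, Pygm and Phkg1 was not tested. Erythroid markers averaged 5.0, 4.98, 4.88 and 4.70 with 2 of 4 below the filter. No other list had a marker below the filter. The part of other cell types in the rise of Slc2a1, Pfkp, Pgam1 and Slc16a3 was not tested. Slc2a4, which fat also makes, fell in the genotypes in which Fabp4 fell, and the part of fat in its fall was not tested. The adipocyte marker Adipoq was highest in the left array of Ntg 1301 (7.85) and the right array of dnPI3K-Mst1 1650 (7.79). Slc2a4 read 9.09 in Ntg 1301 and 9.03 to 9.12 in the other controls. It read 8.09 in dnPI3K-Mst1 1650 and 7.70 to 7.95 in the other animals of that genotype.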

How the data were processed

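The deposited values are log2 probe set signals, and the submitters' processing notes name Affymetrix Expression Console and PLIER, without versions. How the arrays were scaled is not given in the sources used here. Of 35512 probe sets 21789 name 1 gene, 1621 name several and were not used, and 12102 name none. The brightest probe set stood for a gene, and genes with a mean under 4.48 log2, the 30th percentile of the probe sets, were left out.

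Both arrays of an animal were averaged, so that n is 4 animals per genotype. All 16 animals entered one linear model in limma 3.58.1 (R 4.3.3, lmFit and eBayes with a trend), with p-values adjusted by Benjamini-Hochberg over 15219 genes. The model was tested on simulated data. The number of animals limits the precision. The members and the other lists were chosen with earlier results of these data known, so their counts are a description. Every called member is named, with up to 4 called genes of each other list by size of change in the genotypes with Mst1. Bsg, Pdp1, Hif1a, Tbc1d4 and the markers named fall outside that rule and were chosen after their values were seen. Alternatives covered the filter, the scaling, the probe set, the side of the heart, the weights, the trend and each animal left out.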

Additional observations from a re-analysis of the deposited data

Results flagged for a closer look

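In 7 of 132 groups of 4 animals, 1 animal lay apart from the other 3 by more than the Dixon 95% critical value, and chance gives about 1 in 20. Hk1 was at 11.67 log2 in Ntg 1657, where the median of the other 3 was 11.78. Tpi1 was at 10.49 in dnPI3K 3241 (others 10.29), and Pgk1 at 10.85 in dnPI3K-Mst1 1650 (others 10.78). Pgam1 was at 8.44 in Mst1 1466 (others 8.87), the animal with an array that stands apart from the rest. Pdk2 was at 8.95 in dnPI3K-Mst1 1647 (others 9.48). Pygb was at 10.06 in dnPI3K 1648 (others 10.23), and Phka1 at 7.78 in dnPI3K-Mst1 1649 (others 7.62). The effect of Mst1 on Gys1 differed with and without dnPI3K, by 0.97 log2 in the test of the difference (limma, adjusted p = 0.0181).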

How the results depend on the processing

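No call on a gene reversed its direction under any alternative run. Of 1132 values of called genes, 1077 stayed past the threshold and 55 lost it, 20 of them with the arrays labelled left alone and 16 with those labelled right alone. Leaving out an animal enters these numbers once per call, at the largest adjusted p over all animals, with 9 of 81 lost. A call lost without several animals thus counts once. Some uncalled genes passed the threshold under alternatives. Among them were Slc2a4 and Pkm, lower in dnPI3K against Ntg with array weights (limma, adjusted p = 0.021 and 0.008). The 8 calls in dnPI3K against Ntg became 3 with either side alone, 15 with array weights, 13 with only those 2 genotypes, and 4 to 14 with 1 animal left out. Over all genes that comparison had 197 higher and 419 lower calls. These became 29 and 76 with the arrays labelled left, and 179 and 160 with those labelled right. They became 304 and 641 with array weights, and 214 and 516 with only those 2 genotypes. The 1 call in dnPI3K-Mst1 against Mst1 became 0 with the arrays labelled left alone, 7 with array weights, 4 without the 4 animals whose arrays stand apart, and 1 to 3 with 1 animal left out. Over all genes its 403 higher and 129 lower calls became 71 and 3 with the arrays labelled left. They became 1044 and 642 with array weights, and 500 and 403 without the 4 animals. The 1 call of non-additivity became 0 with either side alone, 5 with array weights, and 1 to 2 with 1 animal left out. Over all genes its 56 higher and 22 lower calls became 0 and 0 with the arrays labelled left. They became 11 and 13 with those labelled right, and 246 and 112 with array weights. For Gys1 the non-additivity term was 1.00 (adjusted p = 0.212) with the arrays labelled left, 0.95 (adjusted p = 0.0721) with those labelled right, and 0.69 (adjusted p = 0.044) without the 4 animals. A single side holds fewer arrays. The array of higher Bmp10 was labelled right in 2 Ntg, 1 Mst1, 0 dnPI3K and 0 dnPI3K-Mst1 animals. A single labelled side thus mixes arrays of high and low Bmp10 differently by genotype. The cause of the changes under these alternatives was not tested. Pdk1 in Mst1 against Ntg lost its call without the 4 animals (-0.31, adjusted p = 0.065). The total counts of the other 4 comparisons stayed within 1.5 times, but in Mst1 against dnPI3K the 6 genes called higher became 3 with the arrays labelled left alone. The Hk1 probe set with a RefSeq mRNA was chosen after seeing the data. No paired analysis was possible because the genotypes share no animal numbers.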
